A study of Homo sapiens with 6 samples.

Results

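The genes described here encode the proteins of the mitochondrial ribosome. They were taken from the deposited table by their symbols, which start with MRPL for the large subunit or MRPS for the small subunit followed by a number. The rule used names only and no measured value, and found 78 of the 16834 genes in the table, 49 of the large and 29 of the small subunit.

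The study expressed ccTaggedRP, 1 bicistronic mRNA that encodes Flag-RPL10a-hCdt together with another fusion protein, HA-RPL10a-hGem, in a stable line of HEK293-T Flp-In cells, a human embryonic kidney line with a recombination site that took up a single copy. RPL10a is a protein of the cytosolic large ribosomal subunit, and the mouse form was used behind a CAG promoter. By the paper's account, hCdt removes its protein from late S phase through mitosis, and hGem its own from late G1 through early S phase. Flag-IPs should then favour mRNAs bound to ribosomes of G0/G1 cells and HA-IPs those of G2-M cells. The paper's ideal prediction places both tags in S phase. RNA was recovered from asynchronous cells by 3 Flag-IPs and 3 HA-IPs, selected for poly(A) and sequenced as 150 bp pairs. Every library therefore carries the same construct, and the groups differ in which of the tagged proteins was pulled down. The medium of these cells held serum and Hygromycin B, and the paper describes no synchronizing drug for the IPs. There was no input or untagged library among the samples used here, so values are shares of captured mRNA rather than levels in the cell. Nothing says that the replicates came from separate cultures, so p-values measure the spread between these libraries, which may be technical.

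The mitochondrial ribosome, or mitoribosome, translates the few mRNAs of the mitochondrial genome, all of which encode core subunits of oxidative phosphorylation. Its rRNAs are transcribed in the organelle, while its proteins are encoded in the nucleus, made by cytosolic ribosomes and imported. Many of the proteins have a counterpart in bacterial ribosomes, and others are particular to mitochondria, where they replace lost rRNA or serve membrane attachment and mRNA entry. An IP of tagged cytosolic ribosomes thus captures the mRNAs of these proteins during their synthesis and does not capture the mitoribosome itself. The symbols do not follow the structure in every case: MRPS30 and MRPS18A sit in the large subunit, and MRPS36 is a component of the 2-oxoglutarate dehydrogenase complex. The mitochondrial rRNA genes were not analysed here.

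The members are spread over 21 chromosomes, and what some of them share is sequence near their start, which is shown first. RefSeq start windows of GRCh38.p14, with 250 bases before and 50 after each start, were matched for 69 of the 78 members. Searched on both strands, YY1's letters AAGATGGCG (reverse complement CGCCATCTT) were present in 13 of the 69 genes (18.8%), against 4.30% of the 11687 genes of the table with a window. They lay before the start in MRPL32, MRPL36 and MRPL52, and 6 to 35 bases after it in the other members with a match. These letters contain ATG, and whether the matches after the start cover a start codon was not tested. The letters CCGGAAGT (reverse complement ACTTCCGG), bound by ETS factors such as GABP, were present in 12 genes (17.4%), against 9.28%. NRF1's letters GCGCNTGCG (reverse complement CGCANGCGC) were present in 12 genes (17.4%), against 16.1%. Any of the 3 occurred in 32 genes (46.4%), against 26.5%. None of the 3 motifs contains another. Because genes can have several windows, the shares were also counted over windows, where YY1's letters were in 15.3% of the 85 windows of members and in 1.75% of all 35116 windows. The corresponding shares were 16.5% and 4.14% for the ETS letters and 15.3% and 7.47% for NRF1's letters. NRF1 and GABP are known as regulators of nuclear genes for mitochondrial proteins. A match describes the sequence and does not show that a factor binds there.

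The strand shown is that of the gene, and capitals mark the matched letters. The 250 bases before the start of MRPL20, the member with the smallest p-value below, lie at chr1:1407294-1407543 on the minus strand and hold the ETS letters 44 bases before the start.
MRPL20: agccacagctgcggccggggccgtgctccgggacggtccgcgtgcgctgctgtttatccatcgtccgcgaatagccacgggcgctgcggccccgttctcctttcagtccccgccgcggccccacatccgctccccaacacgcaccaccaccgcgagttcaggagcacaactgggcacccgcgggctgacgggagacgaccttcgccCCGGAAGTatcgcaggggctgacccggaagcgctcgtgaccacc

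Shorter windows show the same ETS letters in MRPL47, another large subunit gene described below, and in MRPL3 and MRPS34, whose levels were among the highest. They lie at chr3:179604660-179604687, chr3:131502986-131503013 and chr16:1773137-1773164, all on the minus strand, and in MRPS34 the match is on the opposite strand.
MRPL47: gcttgagacgCCGGAAGTgacgctatcg
MRPL3: gtaaaacgcaCCGGAAGTgggtccggcg
MRPS34: tcttccggtgACTTCCGGccggaccgct

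YY1's letters are shown for MRPS24 and MRPL52, which had some of the lowest fold changes, and for MRPL46, which shares a start region with MRPS11. In MRPL52 they lie 98 and 64 bases before the start, of which the farther is shown, and in MRPS24 and MRPL46 they lie after it. The windows are chr7:43869480-43869508 on the minus strand, chr14:22829779-22829807 on the plus strand and chr15:88467362-88467390 on the minus strand. NRF1's letters are shown for MRPS9, the member with the next highest fold change after MRPS34, at chr2:105038019-105038047 on the plus strand.
MRPS24: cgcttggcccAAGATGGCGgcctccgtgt
MRPL52: acgatgacccAAGATGGCGgagccgtgat
MRPL46: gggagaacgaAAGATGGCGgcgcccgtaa
MRPS9: cgcgccattaGCGCCTGCGccgtctctag

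The values are normalized counts, which are reads divided by a size factor per library, and the whole reads behind them could be recovered. The listed genes held between 23174532 and 44134833 reads per library. Markers of heart muscle stood apart between the groups: 26 of 37 such genes were listed, all 26 were called higher in the Flag-IPs, and together they took up 0.331% to 0.710% of normalized counts in the Flag-IPs against 0.00761% to 0.0651% in the HA-IPs. One of them, CSRP3, was at 0 in HA-IP replicates 1 and 2. Fibroblast markers were called higher in the Flag-IPs in 6 of 8 listed genes, with 0.0206% to 0.0294% of counts against 0.00868% to 0.0107%. Of 7 listed markers of endothelium, 4 were called higher there and all 7 had a negative fold change, and together they took up 0.00156% to 0.00198% against 0.00110% to 0.00116%. Both listed blood markers were also called higher, and the hemoglobin genes HBB, HBA1 and HBA2 were not among the listed genes. Genes that mark HEK293 cells were present in every library, led by NEFL at about the same level (27352 to 29469 normalized counts). Of the 7 listed, INA was called higher in the HA-IPs, at a log2 fold change of 0.35 (limma adjusted p = 0.0065). PAX2 was called higher in the Flag-IPs, at -0.79 (adjusted p = 0.047), and 5 were not called. The labels give kidney as the tissue of the line. Of 9 markers of mature kidney, 4 were listed and 5, UMOD among them, were not. LRP2 was high in every library (3391 to 4663 normalized counts) and was called higher in the HA-IPs, at a log2 fold change of 0.29 (limma adjusted p = 0.038). SLC34A1 was called higher in the Flag-IPs, with 119, 102 and 59.0 normalized counts against 1.41, 5.94 and 5.51 (adjusted p = 0.00036), as was SLC12A1 with 68.8, 55.3 and 26.7 against 1.41, 4.95 and 1.10 (adjusted p = 0.0012), while AQP1 was low and not called. Mitoribosomal proteins are made in every one of these cell types, and the part of such RNA in the values below was not tested.

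The table holds only genes that passed the authors' filter on low reads, so all 78 members found in it had passed, and members removed by the filter are not seen here. Their mean normalized counts over the 6 libraries ran from 133 for MRPS18C to 4416 for MRPL37, with a median of 863, and a single library held 113 to 6063 reads of a member. The coefficient of variation between replicates had a median of 8.68% in the Flag-IPs against 5.82% in the HA-IPs. Fold changes below are HA-IP over Flag-IP on the scale log2(normalized count + 1), so a negative value means a higher value in the Flag-IPs. They were tested with limma over all 16834 genes, two-sided, and a gene was called at a Benjamini-Hochberg adjusted p of at most 0.05.

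Few of the mRNAs for mitoribosomal proteins passed the test, and those that did were higher in the Flag-IPs. Of the 78 members, 9 were called in that direction and 0 in the other, where 7.1% and 5.79% of all genes were called. The 9 members are 11.5% of the set, a share not far from the background for that direction. At an unadjusted p under 0.05, 17 members (21.8%) were higher with the Flag tag and 0 with the HA tag, where 2348 (13.9%) and 2239 (13.3%) of the 16834 genes were. edgeR and DESeq2 on the recovered reads also called 9 members each, all higher in the Flag-IPs, and with these tools 19 and 17 members had an unadjusted p under 0.05 in that direction and 0 in the other. The median log2 fold change of the members was -0.12, against -0.0049 over all genes. A negative fold change was found in 63 of the 78 members, against 51% of all genes. The values of the 3 Flag-IPs lay entirely above those of the 3 HA-IPs in 19 members (24.4%; 16.1% of all genes) and entirely below them in 0 members (16.1% of all genes). No member was lower in the Flag-IPs by more than 0.24 on the log2 scale.

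**Figure D1:**
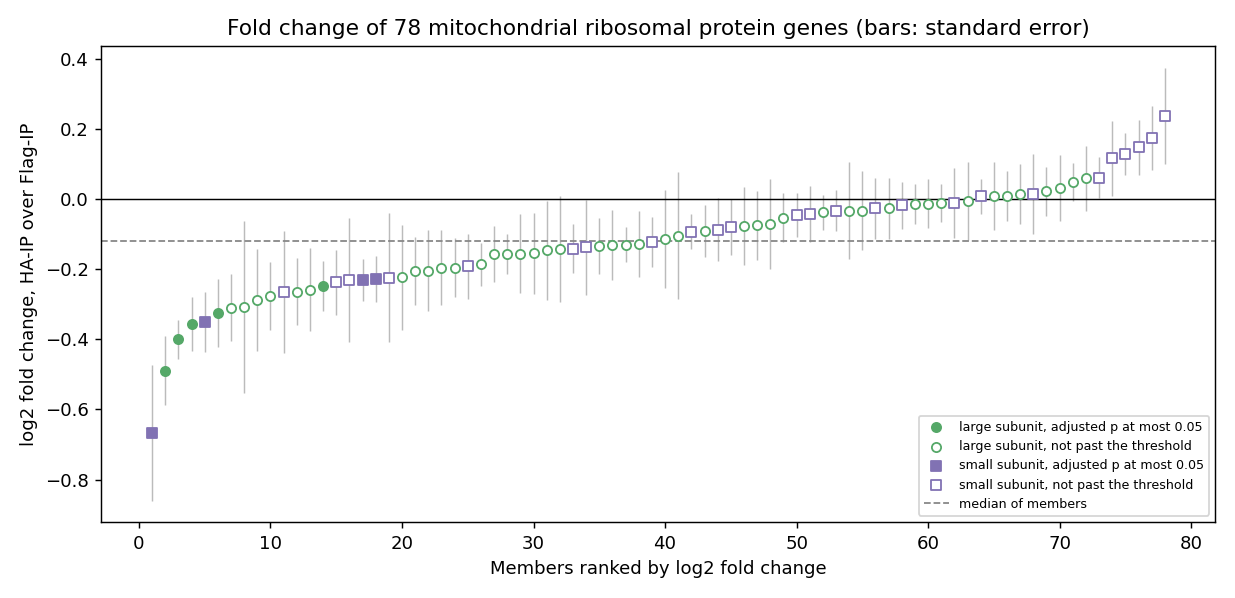
Log2 fold change (HA-IP over Flag-IP, vertical axis) of the 78 mitoribosomal protein genes in order of rank (horizontal axis). Bars are the standard error of the limma fit, filled symbols passed the adjusted p of 0.05, and the dashed line is the median of -0.12. The 9 filled symbols are all below zero, and 15 of the 78 members lie above it.

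MRPL20, a large subunit protein with a bacterial counterpart, gave the smallest p-value of the members. Its normalized counts were 2019, 2039.5 and 2109 in the Flag-IPs against 1485, 1619 and 1572 in the HA-IPs. The lowest Flag-IP lay well above the highest HA-IP. The means were 2056 ± 47.3 and 1559 ± 68.0 (SD, n = 3 each), a 1.32-fold higher value in the Flag-IPs, with a log2 fold change of -0.40 (SE 0.056, limma adjusted p = 0.0014). The gene lies at chr1:1401909-1407293 on the minus strand and has 4 exons. Its exons share 138 bases with MRPL20-AS1 on the opposite strand, which was itself listed at a mean of 1148 normalized counts, and because the strandedness of counting is not given, reads in that stretch cannot be assigned. The call was kept when each of the 6 libraries was left out in turn.

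MRPL47 (chr3:179588285-179604649) belongs to the proteins around the polypeptide exit, where new chains leave the ribosome. It had 655, 712 and 692 normalized counts in the Flag-IPs against 434, 475 and 565 in the HA-IPs. All Flag-IPs were higher, and the HA-IPs varied more than the Flag-IPs. The means of 686 ± 29.4 and 491 ± 66.7 differed 1.40-fold, with a log2 fold change of -0.49 (SE 0.098, limma adjusted p = 0.0092). The call was lost without Flag-IP replicate 2 (adjusted p = 0.059) and kept without each of the other libraries. Its exons share 123 bases with ACTL6A on the opposite strand.

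MRPL23 (chr11:1947278-1984522), also an exit site protein, had 426, 369 and 449 normalized counts in the Flag-IPs against 331, 325 and 333 in the HA-IPs. The HA-IPs were nearly equal, at 329.6 ± 4.24, and all lay below the Flag-IPs at 415 ± 41.3. The log2 fold change of -0.33 (SE 0.097, limma adjusted p = 0.047) was the closest to the threshold among the called members. Leaving out any 1 library ended this call (adjusted p from 0.054 to 0.15), and DESeq2 gave an adjusted p of 0.051. MRPL9 (chr1:151759647-151763496) is another protein with a bacterial counterpart. It had 1570.1, 1446 and 1313 normalized counts in the Flag-IPs against 1161, 1228 and 1248 in the HA-IPs, with no overlap. Its log2 fold change was -0.25 (SE 0.072, limma adjusted p = 0.043), and the call held without Flag-IP replicate 3 and was lost without any of the other libraries (adjusted p from 0.083 to 0.16). Exons of MRPL9 share 265 bases with OAZ3 on the opposite strand and 113 with a noncoding gene on the same strand. Those of MRPL23 share 85 bases with MRPL23-AS1 on the opposite strand.

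MRPL55 (chr1:228106679-228109312) is a large subunit protein without a bacterial counterpart. Its counts were 671, 746 and 724 in the Flag-IPs against 525, 559.6 and 589 in the HA-IPs. The groups did not overlap, and the means of 714 ± 38.5 and 558 ± 32.0 gave a log2 fold change of -0.36 (SE 0.078, limma adjusted p = 0.013). The call was lost without Flag-IP replicate 2, HA-IP replicate 1 or HA-IP replicate 2 (adjusted p from 0.055 to 0.081). No other gene of the table overlaps its exons.

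**Figure D2:**
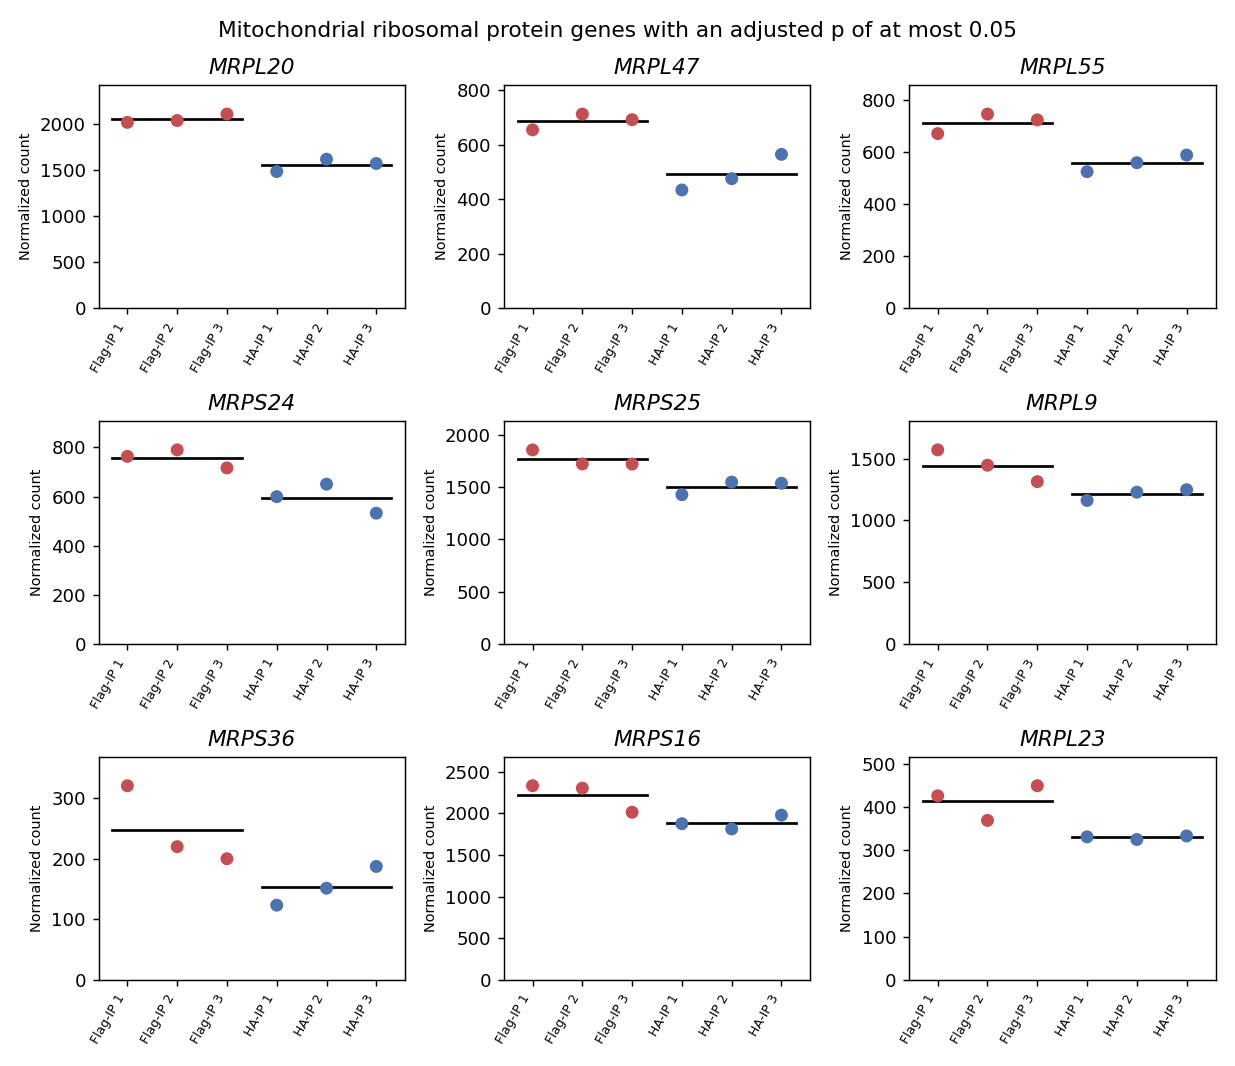
Normalized count (vertical axes, from zero) in each of the 6 libraries for the 9 called members. Points are single libraries, red for Flag-IP and blue for HA-IP, and lines are group means. In every panel all Flag-IPs lie above all HA-IPs, and the gap is clear in MRPL20 and small beside the spread in MRPS36.

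In the small subunit, MRPS24 (chr7:43866558-43869893) has a bacterial counterpart at the mRNA entry. It had 764, 790.1 and 717 normalized counts in the Flag-IPs against 599.8, 651 and 533 in the HA-IPs. The lowest Flag-IP was above the highest HA-IP, and the means of 757 ± 37.2 and 594 ± 59.2 differed 1.28-fold. The log2 fold change was -0.35 (SE 0.086, limma adjusted p = 0.022), and the call was lost without Flag-IP replicate 2, HA-IP replicate 1 or HA-IP replicate 3 (adjusted p from 0.076 to 0.11). MRPS16 (chr10:73248843-73252693) has a bacterial counterpart as well. It had 2332, 2303 and 2014 normalized counts in the Flag-IPs against 1876, 1813 and 1979 in the HA-IPs. Flag-IP replicate 3 and HA-IP replicate 3 were nearly level. Its log2 fold change of -0.23 (SE 0.067, limma adjusted p = 0.044) was called without Flag-IP replicate 3 and was lost without any of the other 5 libraries (adjusted p from 0.065 to 0.18). Exons of MRPS24 share 606 bases with URGCP-MRPS24 on the same strand, and those of MRPS16 share 395 with DNAJC9-AS1 on the opposite strand. Reads in these stretches cannot be assigned.

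MRPS25 (chr3:15009611-15065339), a small subunit protein particular to mitochondria, had 1854, 1720.5 and 1719 normalized counts in the Flag-IPs against 1427, 1547 and 1536 in the HA-IPs. The groups were separate, at 1765 ± 77.7 and 1503 ± 66.5, with a log2 fold change of -0.23 (SE 0.059, limma adjusted p = 0.027). Its exons overlap those of NR2C2 on the opposite strand over 7157 bases, so its count may hold reads of NR2C2 or lack its own in that stretch. The call held without Flag-IP replicate 1 or 3 and was lost without Flag-IP replicate 2 or any HA-IP (adjusted p from 0.061 to 0.12).

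MRPS36 (chr5:69217760-69230158), the gene whose product belongs to the 2-oxoglutarate dehydrogenase complex, had the lowest fold change of the 78. Its normalized counts were 321, 220.1 and 200.2 in the Flag-IPs against 123, 152 and 187 in the HA-IPs. Flag-IP replicate 1 stood above the other libraries, and the lowest Flag-IP was close to the highest HA-IP. The means were 247 ± 64.7 and 154 ± 32.1, and the log2 fold change was -0.67 (SE 0.19, limma adjusted p = 0.043). The call held without Flag-IP replicate 3 or HA-IP replicate 3 and was lost without any of the other 4 libraries (adjusted p from 0.086 to 0.18), and without Flag-IP replicate 1 the log2 fold change was -0.46.

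By place in the ribosome, the 49 genes with MRPL symbols had a median log2 fold change of -0.13. Of these, 5 (10.2%) were called and 14 (28.6%) were without overlap between the groups, all higher in the Flag-IPs. The 29 genes with MRPS symbols had a median of -0.080, with 4 (13.8%) called and 5 (17.2%) without overlap, again all higher in the Flag-IPs. In that direction 7.1% of all genes were called and 16.1% were without overlap, so the small subunit's share without overlap was near that of all genes. A difference between the subunits was not tested. Of the 29 large subunit proteins with a bacterial counterpart, 4 were called (MRPL9, MRPL20, MRPL23 and MRPL47) and the median was -0.10. Of the 20 large subunit proteins particular to mitochondria on the list used, which counts MRPS30 and does not hold MRPL55, limma and edgeR called 0 and DESeq2 called 1, MRPL51, and their median was -0.14. At an unadjusted p under 0.05, limma had 4 of the 20 and edgeR 6, all higher in the Flag-IPs. At that threshold and direction limma had 13.9% of all genes, and edgeR had 2415 of 16834. The 16 small subunit proteins with a bacterial counterpart had a median of -0.13 with 2 called, and the 9 particular to mitochondria had a median of -0.011 with 1 called. The 8 exit site proteins had a median of -0.14 with 2 called.

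The stalk of the large subunit recruits translation factors, and limma, edgeR and DESeq2 called 0 of its 3 members, MRPL10, MRPL11 and MRPL12, with 1 at an unadjusted p under 0.05 by each tool. MRPL12, the stalk protein, had 1822, 1627 and 1612 normalized counts in the Flag-IPs against 1472, 1503 and 1465 in the HA-IPs, without overlap (log2 fold change -0.19, SE 0.062, limma adjusted p = 0.071). MRPL10, the protein that anchors the stalk, had a log2 fold change of -0.014 (SE 0.058). MRPL58 is a peptidyl-tRNA hydrolase that became part of the large subunit, with a log2 fold change of -0.26 (SE 0.12, limma adjusted p = 0.19). The 3 MRPS18 paralogs, which occupy different places in the mitoribosome, had log2 fold changes of -0.080 for MRPS18A, -0.018 for MRPS18B and -0.23 for MRPS18C, none of them past the threshold. MRPS30 was almost level, at 2239 ± 59.1 normalized counts in the Flag-IPs against 2250.3 ± 14.8 in the HA-IPs.

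Among the members that were not called, MRPL52 had the lowest log2 fold change, -0.31 (SE 0.096, limma adjusted p = 0.055). Its counts of 583, 558 and 519 in the Flag-IPs lay above the 394, 489 and 459 of the HA-IPs. MRPL33 and MRPL42 followed with -0.31 (SE 0.25) and -0.29 (SE 0.15), and in both the groups overlapped. At the other end stood MRPS34, MRPS9 and MRPS35, all of the small subunit, whose log2 fold changes were 0.24, 0.17 and 0.15 (limma adjusted p = 0.30, 0.25 and 0.25). MRPS34 varied more between the Flag-IPs than between the groups, with 2883, 3898 and 4844 normalized counts there and 4273, 4572 and 4567 in the HA-IPs.

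The libraries of a group were not alike in the members. The median deviation of the members from their own mean over the 6 libraries was 0.18, 0.027 and -0.020 on the log2 scale in Flag-IP replicates 1, 2 and 3, and -0.12, -0.036 and 0.013 in the HA-IPs. The third HA-IP was thus above the third Flag-IP, and the groups overlapped by this measure. Of the 78 members, 55 were highest in Flag-IP replicate 1 and 33 were lowest in HA-IP replicate 1. Without Flag-IP replicate 1 the median log2 fold change of the members was -0.053 with 5 called higher in the Flag-IPs, while 1, MRPS35, was higher in the HA-IPs. Without HA-IP replicate 1 it was -0.067, with 2 called. The heart muscle markers took up 0.710%, 0.519% and 0.331% of normalized counts in Flag-IP replicates 1, 2 and 3 and 0.0120%, 0.00761% and 0.0651% in the HA-IPs. The Flag-IPs thus had the same order in both measures. Among the HA-IPs, replicate 3 was the highest in both, while replicates 1 and 2 stood in opposite order. Flag-IP replicate 3 lay below HA-IP replicate 3 in the members (-0.020 against 0.013) and above it in the markers (0.331% against 0.0651%). The part of the marker-bearing RNA in the deviations was not tested.

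Cytosolic ribosomal proteins, of which RPL10a is one, spread more widely over the libraries. The 85 genes with such symbols, like-named paralogs included, deviated by 0.42, 0.078 and 0.059 in the Flag-IPs against -0.38, -0.15 and -0.018 in the HA-IPs. Of these genes, limma called 38 (44.7%) with Flag-IPs higher and 0 with HA-IPs higher, where 7.1% and 5.79% of all genes were called. At an unadjusted p under 0.05 the limma counts were 62 and 0, where 13.9% and 13.3% of all genes were. edgeR and DESeq2 called 40 and 39 with Flag-IPs higher, and 0 in the other direction. The median log2 fold change of the 85 genes was -0.36. Transcripts of both sets were short. The median canonical transcript was 1242 bases long in mitoribosomal genes, 869 in cytosolic ribosomal protein genes and 2987 over all genes, and 33.3% of the members were under 1000 bases against 5.12% of protein-coding genes. All 710 protein-coding genes of such length, whatever their function, had a median log2 fold change of -0.24. Of these, 153 (21.5%) were called in favour of the Flag-IPs and 5 (0.704%) in favour of the HA-IPs. They deviated by 0.23, 0.073 and 0.060 in the Flag-IPs against -0.24, -0.089 and -0.012 in the HA-IPs. The 13149 longer protein-coding genes had a median of 0.016. The 26 short members had a median of -0.18, and the 52 longer members had a median of -0.074.

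**Figure D3:**
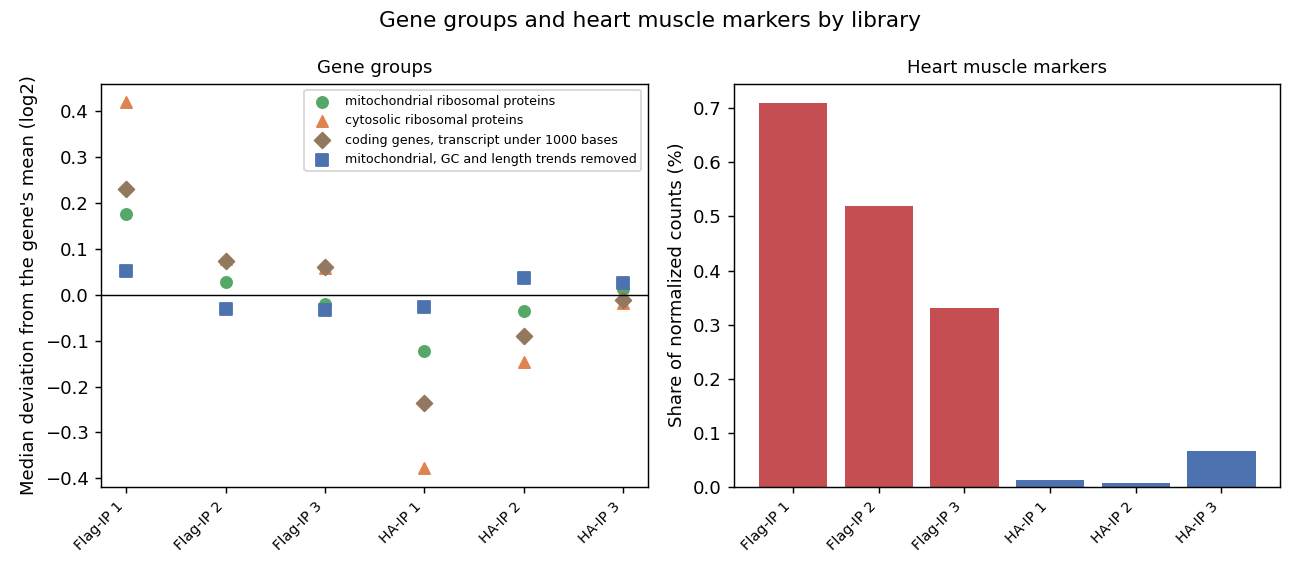
Left: median log2 deviation of the genes of each group from their own mean (vertical axis) in each of the 6 libraries. Right: share of normalized counts in percent taken by 26 heart muscle markers, from zero. Mitoribosomal, cytosolic ribosomal and short coding genes are all highest in Flag-IP replicate 1 and lowest in HA-IP replicate 1, and after removal of trends the mitoribosomal medians lie between -0.034 and 0.050.

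Each library's trends with transcript length and GC content were taken out to see how much of the difference moved with these properties. The median log2 fold change of the members became 0.0083, against -0.030 over all genes, and 37 members were lower and 41 higher in the HA-IPs. Then 1 member, MRPS25, was called higher in the Flag-IPs (6.56% of 16683 genes), and MRPL16 and MRPL39 were called higher in the HA-IPs (2.7% of genes). The small subunit median turned from -0.080 to 0.049, and that of the large subunit moved to -0.0042. The other 8 members called before lost their calls. MRPL20 moved from -0.40 to -0.16 (limma adjusted p = 0.12), MRPS24 from -0.35 to -0.078 (adjusted p = 0.62), MRPL9 from -0.25 to -0.12 (adjusted p = 0.18), MRPL23 from -0.33 to -0.16 (adjusted p = 0.23) and MRPL55 from -0.36 to -0.17 (adjusted p = 0.052). The values of MRPL47, MRPS36 and MRPS16 were then -0.36, -0.51 and -0.23 (adjusted p = 0.080, 0.078 and 0.052), and that of MRPS25 was -0.27 (adjusted p = 0.034). The library medians of the members were then 0.050, -0.031 and -0.034 in the Flag-IPs against -0.026, 0.036 and 0.025 in the HA-IPs. Transcript length, GC content and the tagged ribosome's phase all go with the groups or the genes here, and which of them the difference belongs to was not tested.

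**Figure D4:**
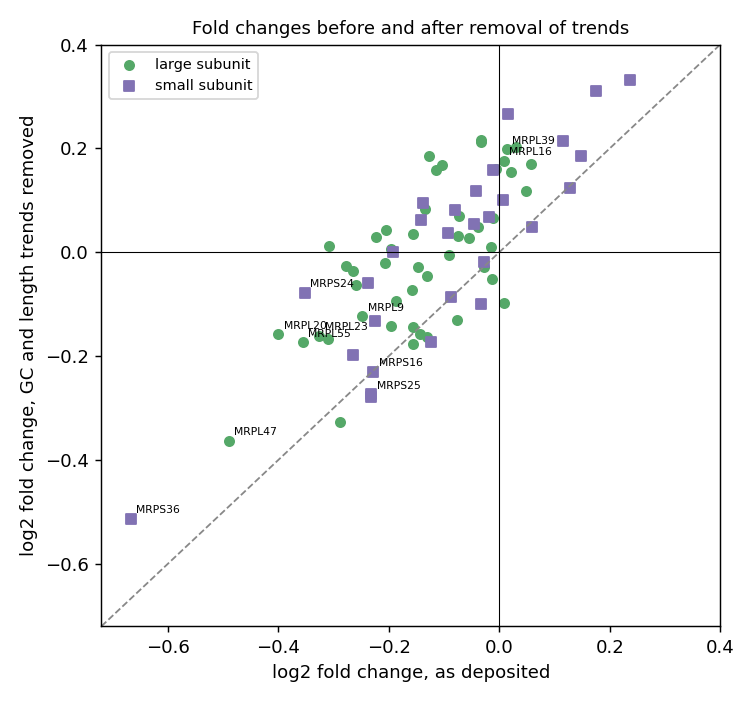
Log2 fold change (HA-IP over Flag-IP) of the 78 members from the deposited values (horizontal axis) and after removal of GC and length trends (vertical axis), with the line of equal values dashed. Named genes were called in either analysis. Most points lie above the dashed line, and the median moves from -0.12 to 0.0083.

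The levels of the members differed far more from one another than between the IPs. Per kb of merged exons, the mean over the 6 libraries ran from 27.3 normalized counts per kb for MRPS18C to 3821 for MRPS34, with a median of 295. The next highest were MRPS26 at 2524, MRPL37 at 1732 and MRPL12 at 1569.6, and the next lowest were MRPS22 at 36.9, MRPS33 at 52.2 and MRPL50 at 60.4. MRPS34 and MRPS26 are small subunit proteins particular to mitochondria, and MRPL37 and MRPL50 are such proteins of the large subunit. Merged exons count every annotated isoform, and those of MRPS22 come to 16385 bases against 1205 in its canonical transcript. Of these, 6378 bases overlap exons of COPB2 on the opposite strand, and 1956 bases of MRPS18C overlap ABRAXAS1. In MRPL12, 701 bases overlap a gene on the same strand. Exon overlaps with another annotated gene were found in 41 members, so their counts may hold other reads or lack their own. Per kb of canonical transcript, a scale added after the values had been seen, MRPS22 rose to 502 normalized counts per kb and left the lowest members. On that scale MRPS34 was again highest at 4181, followed by MRPL37 at 2978 and MRPS7 at 2877, and MRPL50 was lowest at 60.4. Over the 78 genes the scales had a Spearman's rho of 0.813. The median member, at 635 normalized counts per kb of canonical transcript, lay at percentile 76.1 of protein-coding genes. Because poly(A) mRNA bound to tagged ribosomes was captured, and fewer cells of a phase and less RNA per cell cannot be told apart in bulk samples, these are levels in the IPs and not in the cell.

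**Figure D5:**
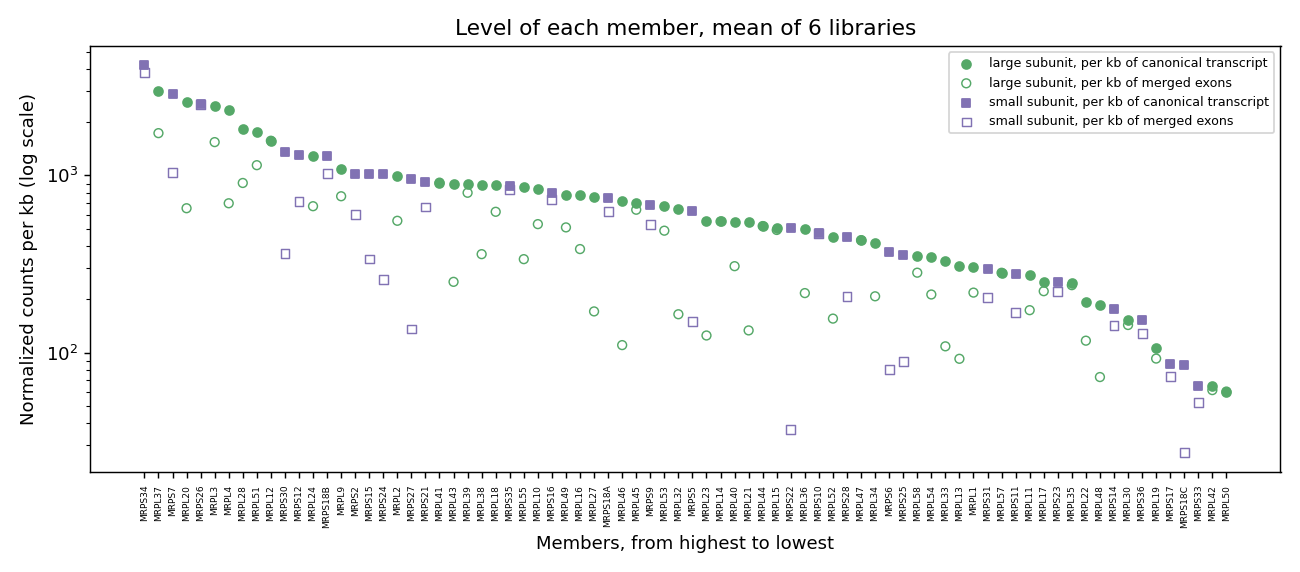
Mean normalized counts per kb over the 6 libraries (vertical axis, log scale) for each of the 78 members, ordered by the level per kb of canonical transcript (filled symbols). Open symbols are per kb of merged exons. MRPS34 is highest on both scales, and genes with many long isoforms such as MRPS22 fall far lower on the merged scale.

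A few proteins of the mitoribosome carry other symbols, and 5 of them were listed. PTCD3, a small subunit protein, had 4239, 4107 and 4255 normalized counts in the Flag-IPs against 5145, 4728 and 4882 in the HA-IPs. All HA-IPs were higher, with a log2 fold change of 0.23 (SE 0.049, limma adjusted p = 0.013). After removal of the GC and length trends PTCD3 stood at 0.14 and was not called (adjusted p = 0.081), and its call was also lost without Flag-IP replicate 2 or HA-IP replicate 1. The other 4 were not called: GADD45GIP1 at 0.51 (SE 0.18), DAP3 at 0.10 (SE 0.048), AURKAIP1 at -0.029 and CHCHD1 at -0.15. Of 26 factors that assemble the mitoribosome, 23 were listed, 6 were called in favour of the HA-IPs and 1 in favour of the Flag-IPs, with a median of 0.015. These calls are 26.1% and 4.35% of the listed factors, where 5.79% and 7.1% of all genes were called. C1QBP, a matrix protein needed for mitochondrial translation, had 4753, 4677 and 4730.0 normalized counts in the Flag-IPs against 6456, 6386 and 5872 in the HA-IPs. Its log2 fold change was 0.40 (SE 0.050, limma adjusted p = 0.00080), and the groups were far apart. The helicase DHX30 and FASTKD2, which act in RNA granules on the large subunit, had log2 fold changes of 0.27 and 0.32 (limma adjusted p = 0.0052 and 0.012). MRM2, an rRNA methyltransferase, was the 1 assembly factor called higher in the Flag-IPs, at -0.28 (limma adjusted p = 0.0092). With the trends removed FASTKD2 lost its call, at 0.21 (adjusted p = 0.088), while C1QBP, DHX30 and MRM2 were called at 0.54, 0.22 and -0.23 (adjusted p = 0.0076, 0.019 and 0.025). The calls of FASTKD2 and MRM2 were lost without Flag-IP replicate 2 or HA-IP replicate 1, and those of C1QBP and DHX30 held without each library in turn.

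Of 19 factors of mitochondrial translation, 17 were listed, with a median of 0.074. Of these, 3 (17.6%; 5.79% of all genes) were called with HA-IPs higher and 0 with Flag-IPs higher (7.1% of all genes). edgeR and DESeq2 gave the same counts. At an unadjusted p under 0.05 limma had 7 higher in the HA-IPs and 3 higher in the Flag-IPs, where 13.3% and 13.9% of all genes were. The called genes were LRPPRC, which stabilizes mitochondrial mRNAs, at 0.35 (limma adjusted p = 0.0046), TACO1, a translational activator, at 0.40 (adjusted p = 0.033) and the elongation factor GFM1 at 0.18 (adjusted p = 0.041). With the GC and length trends removed none of these 3 calls held, at 0.25 for LRPPRC (adjusted p = 0.051), 0.51 for TACO1 (adjusted p = 0.053) and 0.074 for GFM1 (adjusted p = 0.39). LRPPRC was called without each library in turn. TACO1 lost its call without Flag-IP replicate 2, HA-IP replicate 1 or HA-IP replicate 2, and its groups overlapped, with 1105, 1075 and 1459 normalized counts in the Flag-IPs against 1663, 1699.5 and 1425 in the HA-IPs. GFM1 was called without Flag-IP replicate 3 and lost its call without any of the other 5 libraries. The median transcript of these factors was 2536 bases long and that of the assembly factors 2317 bases, against 1242 for the members. A difference between these lists and the members was not tested.

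Many members start close to another gene on the opposite strand. Within 1000 bp, 26 of the 78 members (33.3%) had such a neighbour in the table, against 15.9% of 13859 protein-coding genes. MRPL46 and MRPS11 are neighbours of each other at 63 bp, and had log2 fold changes of 0.031 and -0.12. MRPL49 starts 6 bp from FAU, which encodes a cytosolic ribosomal protein and was called higher in the Flag-IPs (log2 fold change -0.37, limma adjusted p = 0.0096), while MRPL49 stood at -0.16 (adjusted p = 0.093). MRPL51 stood at -0.28 (adjusted p = 0.086) and its neighbour NCAPD2, a condensin subunit needed in mitosis, was called higher in the HA-IPs at 0.22 (adjusted p = 0.016). The exons of MRPL51 and NCAPD2 overlap on opposite strands, so their counts may share or lack reads of that stretch.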

How the data were processed

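Poly(A) RNA from 3 Flag-IPs and 3 HA-IPs was sequenced. The authors trimmed reads (Trimmomatic 0.36), mapped them to GRCh38 (STAR 2.5.2b) and counted them per gene (featureCounts of Subread 1.5.2, per the submitters' processing notes). They excluded genes with few reads. Whether counting used the strand is not given in the sources used here. The deposited values are a normalized signal, read counts divided by a size factor, for 16834 genes. The deposited log2 fold changes and adjusted p-values of the authors' own comparison were not used.

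Whole reads were recovered from the values, and all of them (100%) came out whole within 0.01 of a read. Library totals were 23174532, 28223693 and 33429519 reads (Flag-IP replicates 1 to 3) and 44134833, 31807471 and 28737728 reads (HA-IP replicates 1 to 3). With 3 libraries per group an exact test of a single value could not go below 0.1, so both groups were tested against each other over all genes in limma 3.58.1 (R 4.3.3), with a variance trend, on log2(value + 1). edgeR 4.0.16 and DESeq2 1.42.0 on the recovered reads were alternatives, beside other scalings, pseudocounts, filters, a replicate block and each library left out. The fits were tested on simulated data. GC content and transcript length came from GENCODE 44, which holds 16683 of the identifiers (99.1%), and each library's trends were removed by robust regression on natural splines (5 degrees of freedom). Promoters came from RefSeq, and the letters searched for YY1 and NRF1 were shortened by 1 base after shares of the longer forms had been seen. Analyses used Python 3.11.15, pandas 2.3.3 and matplotlib 3.10.9.

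Named genes are all called members, the 3 highest and 3 lowest fold changes among the others with a mean of at least 100, the 4 highest and 4 lowest levels per kb of merged exons, members of special place (MRPL10, MRPL12, MRPL58, MRPS30, MRPS36 and the MRPS18 paralogs), proteins under other symbols, and up to 3 called genes in each direction of the assembly and translation lists. MRPS7, MRPS11, MRPL3, MRPL16, MRPL39, MRPL46, MRPL49 and MRPL51 were named after their values were seen, as were FAU and NCAPD2. The members and lists were chosen with earlier results of these data known.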

Additional observations from a re-analysis of the deposited data

How the results depend on the processing

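The median log2 fold changes of -0.1309 for the large and -0.0797 for the small subunit kept their sign under every alternative tried, apart from the removal of GC and length trends. There, with and without the replicate block, the small subunit median was reversed to 0.0488 and the large subunit median moved to -0.0042. Without the block the calls were then 2 higher in the HA-IPs and 0 higher in the Flag-IPs for the large subunit and 1 higher in the Flag-IPs for the small. With the replicate block and the trends removed together, 0 members of either subunit were called, with 8 higher in the Flag-IPs and 14 in the HA-IPs at an unadjusted p under 0.05 in limma. The cause of these changes was not tested. Against 5 large and 4 small subunit calls higher in the Flag-IPs, limma without the variance trend gave 0 and 0 (13 members at an unadjusted p under 0.05; 188 of all genes called, against 2171), quantile normalization 3 and 2 (1708 of all genes), an adjusted p of at most 0.01 gave 2 and 0, and members without shared reads (25 large and 11 small, by construction fewer genes) gave 1 and 1. Scaling to the same total raised the large subunit calls to 10, and shifted the median of all genes to -0.057, while quantile normalization shifted it to 0.044. With the replicate number as a block, 3 large and 1 small subunit genes were called higher in the Flag-IPs, namely MRPL20, MRPL47, MRPL55 and MRPS24. The labels do not say whether libraries of the same number share a lysate or culture, so the main fit had no block. Deviations of same-numbered libraries correlated at -0.156, 0.031 and -0.310 over 13141 genes, and those of differently numbered libraries at -0.243 to 0.302. With 3 libraries per group, such correlations cannot decide whether the libraries were paired. Leaving out 1 library at a time gave 1 to 8 large and 0 to 5 small subunit calls higher in the Flag-IPs, and 0 to 1 small subunit calls in the HA-IPs, while calls over all genes ran from 620 to 3059. Without Flag-IP replicate 2 only MRPL20 was called (620 of all genes), without HA-IP replicate 1 only MRPL20 and MRPL47 (780), without HA-IP replicate 2 those and MRPS24 (900), without Flag-IP replicate 1 (2009) or HA-IP replicate 3 (1216) there were 5 calls in the Flag-IPs, and without Flag-IP replicate 3 there were 13 (3059). MRPS35 without Flag-IP replicate 1 and MRPS34 without Flag-IP replicate 3 were called higher in the HA-IPs. Among the named genes, a call was lost in 120 of the results and gained in 10. Over 18 refits of the 39 named genes the fold change took the other sign 32 times, each time in a gene that was not called on the deposited values, 8 of them with the trends removed (MRPL10, MRPL33, MRPS18A, MRPS18B, MRPS22, MRPS26, AURKAIP1 and CHCHD1) and the same number with the block added. TACO1 and GFM1 lost their calls under the block (adjusted p = 0.084 and 0.058). The median level of the members was 295.3 normalized counts per kb of merged exons and moved to 635.3 per kb of canonical transcript, chosen after seeing the data, whose shorter length raises every level it changes. Depth, at 113 or more reads per member and library, limited the lowest members most.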
